A study of Mus musculus with 6 samples.

Results

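The S100 proteins are small proteins of the EF-hand class, most of them calcium-binding. Of their genes, 8 formed the subject here: S100a1, S100a4, S100a6, S100a8, S100a9, S100a10, S100a11 and S100a13. The members were picked by symbol from a table of 55367 genes, and 26402 of these genes had values. RNA-seq had been performed on leukemia stem cells (LSCs) from the bone marrow of MLL-AF9 acute myeloid leukemia (AML) mice, with 3 WT and 3 Piezo1cKO libraries. Per the study's methods, the Piezo1cKO donors were Mx1-cre; Piezo1fl/fl mice and the WT donors were Piezo1fl/fl littermates without the transgene. Both received pIpC at 8 to 10 weeks of age, so the floxed alleles and the injections were common to both groups. Mx1-Cre is switched on by interferon in blood cells and in other interferon-responsive tissues. Lin- bone marrow cells of either donor had been transduced with an MLL-AF9-YFP retrovirus and transplanted into irradiated recipients. LSCs were sorted as YFP+ Lin- Sca-1- c-Kit+ cells with high CD16/32 and with CD34. No source used here says how many mice gave each library or which transplantation round it came from, so the p-values measure the spread between these libraries only.

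Most S100 proteins, though not all, work as paired subunits that change shape on binding calcium and then grip partner proteins inside the cell. S100A8 and S100A9 join to form calprotectin, an abundant cytosolic protein of neutrophils and monocytes that is released as an alarm signal and acts on TLR4 and RAGE. S100A10 travels with annexin A2 at the plasma membrane and also serves as a plasminogen-binding site. S100A11 pairs with annexin A1, S100A6 binds the calcyclin-binding protein, S100A1 is known for calcium handling in muscle, and S100A13 is known for the release of FGF1 and IL-1 alpha. S100A4 is known for motility and for binding non-muscle myosin. The comparison asked how the level of each paralog differed between WT and Piezo1cKO LSCs. Piezo1 is a mechanically gated cation channel that lets calcium into the cell.

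In brief, S100a8 and S100a9 fell in Piezo1cKO LSCs and the other 5 tested members rose by a small amount. S100a4 had almost no counted reads in either group. All 8 members lay on chromosome 3 of GRCm38, between positions 90511034 and 93564643, and the sequences beside the paralogs that shared a direction are shown here because pairs of neighbours moved alike. S100a8 occupied chr3:90668978-90670035 on the plus strand. S100a9 occupied chr3:90692632-90695721 on the minus strand. Their starts were 26.7 kb apart and faced each other. The stretches ahead of each annotated start were taken from RefSeq promoter entries of GRCm38.p6. That of S100a8 holds only 157 bases, because its RefSeq start lies inside the annotated gene. They read as follows, 5′ to 3′ on the strand of the gene, with motif matches in capitals.
S100a8, chr3:90668821-90668977, plus strand: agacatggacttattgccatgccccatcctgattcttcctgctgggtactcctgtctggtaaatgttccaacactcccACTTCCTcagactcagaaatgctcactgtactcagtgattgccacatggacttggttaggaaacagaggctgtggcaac
S100a9, chr3:90695722-90695971, minus strand: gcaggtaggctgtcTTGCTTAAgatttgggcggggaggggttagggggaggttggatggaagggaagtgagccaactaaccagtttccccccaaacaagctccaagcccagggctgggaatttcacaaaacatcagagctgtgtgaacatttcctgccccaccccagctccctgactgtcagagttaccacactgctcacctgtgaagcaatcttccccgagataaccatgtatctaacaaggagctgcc

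The capitals in S100a8 mark 1 ETS-type match (AGGAAGT, read on the other strand), and those in S100a9 mark 1 C/EBP-type match (TTGCNNAA). Entries of 300 bases, 250 before and 50 after the RefSeq start, were found for 7 of the 8 members, all but S100a10. Both strands were searched for 5 motifs, chosen with the sequences in view. The C/EBP-type motif was held by 10.8% of the 32851 promoter entries and by S100a9 alone among the members. The ETS-type motif was held by 9.35% of all entries and by S100a4 and S100a8. A TATA box (TATAAA), held by 13.6% of all entries, began 30 bases before the RefSeq start of S100a8, 31 bases before that of S100a4 and at the start itself in S100a9. Those of S100a8 and S100a9 lie beyond the printed stretches. None of these 3 motifs was in the entries of S100a1, S100a6, S100a11 or S100a13. The AP-1-type motif (TGANTCA, 7.81% of all entries) was found at 2 places in S100a11 only. ACGTG, the core of hypoxia response elements (19.6% of all entries), was in S100a6 and S100a11.

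S100a1 (chr3:90511034-90514392, minus strand) and S100a13 (chr3:90514435-90524581, plus strand) were read away from each other from starts that left only 42 bases between the annotated genes. These bases, shown on the plus strand, held none of the 5 motifs.
S100a1 to S100a13, chr3:90514393-90514434: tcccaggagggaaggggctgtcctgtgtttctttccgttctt

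The values in the table were on a log2 scale on which each gene had been pulled toward its own mean, so fold changes of genes with few reads were compressed. The reads behind them were recovered by undoing that transformation. Each library held between 14112118 and 15483606 recovered reads on genes, and 92.9% of values of genes with a mean of at least 1 read came out within 0.1 of a whole number. In the results, normalized reads are recovered reads divided by the size factor of the library, and a difference on the deposited scale is given apart from one on the scale of reads. Exact binomial intervals, taken on the reads of single libraries, cover no amplification error, since the reads carried no molecular identifiers. Standard errors of the fits rest on the spread between libraries. Piezo1 itself had 104, 92 and 113 reads in the WT libraries and 35, 58 and 45 in the Piezo1cKO libraries, or 45.9% of WT after normalization. Libraries of a group differed by 1.63 to 3.4 times the sampling variance over 9088 genes, so none was a copy of another. Of the genes of the sort, Kit, Cd34, Fcgr3 and Fcgr2b each had at least 1553 reads in every library, Cd3e, Cd4 and Ly6g had at most 2 reads and Cd8a was listed at 0. Ly6a, which encodes Sca-1 and is selected against, had 1, 1 and 0 reads in WT and 10, 17 and 7 in Piezo1cKO, and Itgam, encoding Mac-1, had 105, 89 and 111 against 207, 213 and 177.

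S100a8 and S100a9 had the largest changes of the family. S100a8 had 236, 204 and 220 reads in the WT libraries and 15, 17 and 24 in the Piezo1cKO libraries. S100a9 had 284, 252 and 265 reads in WT and 8, 6 and 4 in Piezo1cKO. For both genes every Piezo1cKO library lay far below every WT library, and no values overlapped.

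In normalized reads, S100a8 went from 216 ± 12.03 (SD, n = 3) in WT to 18.9 ± 4.81 (SD, n = 3) in Piezo1cKO, which was 8.76% of the WT level. S100a9 went from 262 ± 12.1 (SD, n = 3) to 6.09 ± 2.15 (SD, n = 3), or 2.33% of the WT level. In a limma-voom fit of the reads of 17352 genes, S100a8 was 11.4-fold lower (2 standard errors on each side, 8.42 to 15.3) with an adjusted p of 2.15e-09. In the same limma-voom fit, S100a9 was 41.3-fold lower (26.6 to 63.9) with an adjusted p of 1.26e-09. A larger absolute change was measured for 5.61% of the genes in this fit in the case of S100a8 and for 0.692% in the case of S100a9.

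On the deposited scale the same falls were compressed. S100a8 held 7.073, 6.998 and 7.018 in WT and 6.001, 6.004 and 6.077 in Piezo1cKO, and S100a9 held 7.238, 7.176 and 7.179 against 5.885, 5.849 and 5.834. The limma test over 16746 genes gave a log2 fold change of -1.002 for S100a8 (SE 0.04, adjusted p = 1.10e-13) and of -1.34 for S100a9 (SE 0.04, adjusted p = 7.73e-16). The thresholds of the study for a differentially expressed gene (DEG) were an adjusted p below 0.05 together with a change of more than 1 log2 unit. The study set them on DESeq2 results from counts, and here they were set on the compressed deposited values. Both genes passed on this scale, S100a8 by a narrow margin. Without WT replicate 1, Piezo1cKO replicate 1 or Piezo1cKO replicate 2 S100a8 did not pass on it, with values as small as -0.98. On the scale of reads its log2 fold change was -3.50.

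The family's calls were read against those over all genes. Of the 7 members tested, 5 passed an adjusted p of 0.05 (limma) upward and 2 downward, where 31.6% of all genes tested were higher and 31.4% lower. None of the 7 overlapped between the groups on the deposited scale, where 33.5% of all genes lay wholly higher and 33.1% wholly lower in Piezo1cKO. No member was a DEG in the higher direction, where 0.257% of all genes were, and 2 were DEGs in the lower direction, where 0.561% of all genes were. On the scale of reads the same 5 members were higher and the same 2 lower (limma-voom), beside 31.6% and 31.4% of all genes, and none overlapped, beside 33.2% and 33% of all genes. The DEG thresholds on that scale took none of the members upward and S100a8 and S100a9 downward, against 12.7% of all genes upward and 12.2% downward. Calls at the adjusted p alone were thus common over all genes.

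**Figure D1:**
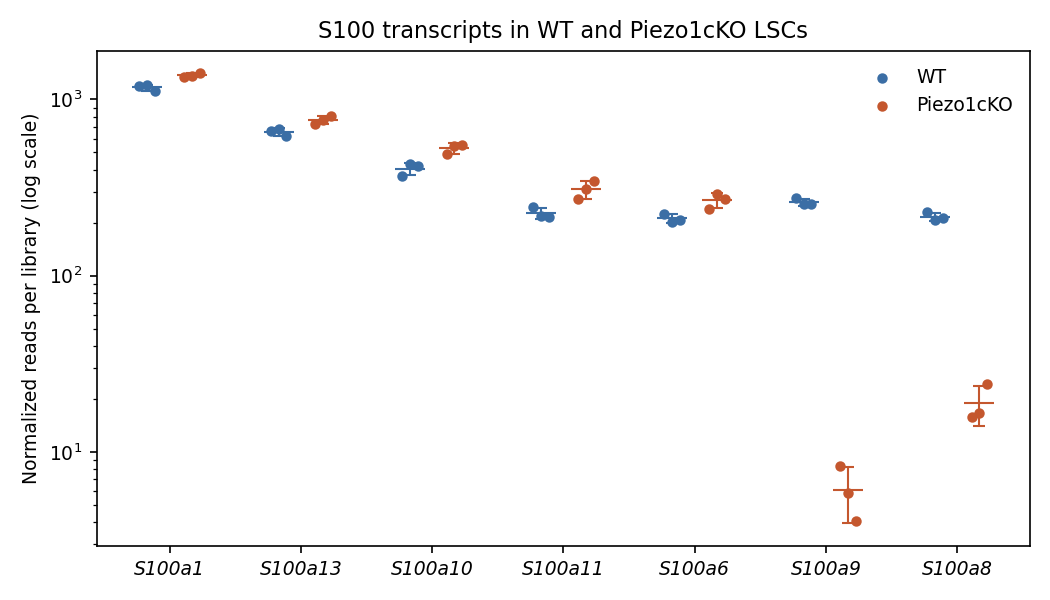
Normalized reads (vertical axis, log scale) of the 7 tested S100 members in each WT (blue) and Piezo1cKO (orange) library, with the mean as a bar and the SD as whiskers (n = 3). S100a9 and S100a8 stood at 4.07 to 8.36 and 15.7 to 24.4 normalized reads in Piezo1cKO, far below WT, while the other 5 members stood slightly above WT.

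The balance of the calprotectin subunits also differed. S100a8 reads made up 45.4%, 44.7% and 45.4% of S100a8 and S100a9 reads together in the WT libraries, and 65.2%, 73.9% and 85.7% in the Piezo1cKO libraries. The exact (Clopper-Pearson) 95% intervals ran from 40.1% to 49.9% over the WT libraries and from 42.7% to 96.0% over the Piezo1cKO libraries, which rested on 23, 23 and 28 reads. S100a9 was thus the more abundant transcript of the pair in every WT library and the less abundant one in every Piezo1cKO library. The log2 difference of S100a8 minus S100a9 in normalized reads was -0.28 ± 0.02 (SD, n = 3) in WT and 1.66 ± 0.85 (SD, n = 3) in Piezo1cKO. On the deposited scale the difference shifted by 0.34 and on the scale of reads by 1.94. The exact two-sided permutation test gave p = 0.1 on both scales, the smallest value that 3 against 3 libraries allow. With so few reads in Piezo1cKO, the size of this shift is poorly fixed, and the interval of Piezo1cKO replicate 1 reached down into the WT intervals.

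**Figure D2:**
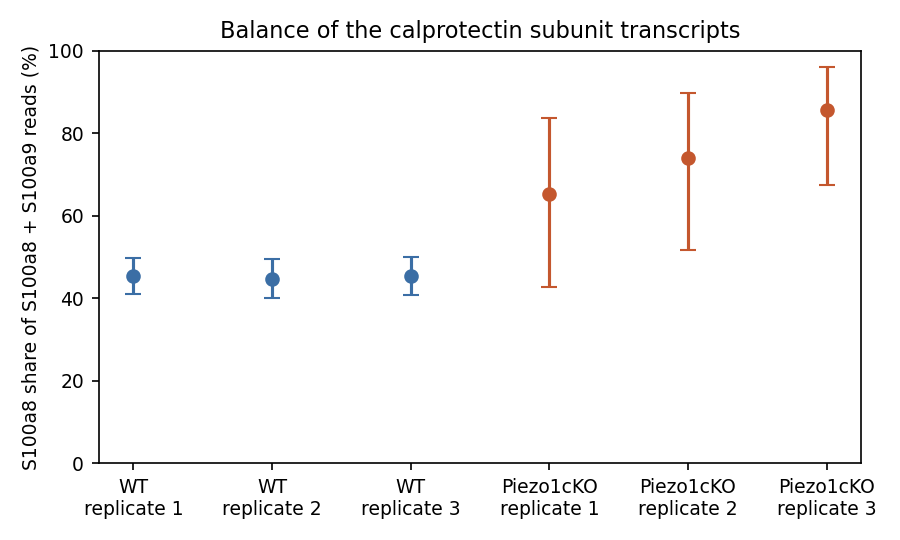
Share of S100a8 among S100a8 and S100a9 reads (vertical axis, percent) in each library, with exact 95% binomial intervals. The WT libraries (blue) sit at 44.7% to 45.4% and the Piezo1cKO libraries (orange) at 65.2% to 85.7%, with wider intervals because they hold 23 to 28 reads.

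The loss of calprotectin transcripts left the summed S100 reads much the same. S100a8 and S100a9 together made up 15.8%, 14.4% and 15.3% of the reads of the 8 members in WT, and 0.776%, 0.680% and 0.836% in Piezo1cKO. The other 6 members summed to 2668 ± 81.8 normalized reads (SD, n = 3) in WT and 3242 ± 156 (SD, n = 3) in Piezo1cKO, and every Piezo1cKO library was above every WT library. The sum over all 8 members was 3145 ± 89.3 (SD, n = 3) in WT and 3267 ± 158 (SD, n = 3) in Piezo1cKO, and these values overlapped between the groups. S100a1 alone gave 36.7% to 37.6% of the reads of the members in WT and 41.3% to 43.4% in Piezo1cKO.

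The members that rose did so by 1.17 to 1.37 times. S100a10, the partner of annexin A2, had 380, 424 and 436 reads in WT and 467, 558 and 545 in Piezo1cKO. Its normalized reads were 405 ± 32.0 (SD, n = 3) against 529 ± 35.8 (SD, n = 3), a ratio of 1.30. The deposited values gave a log2 fold change of 0.22 (SE 0.04, limma adjusted p = 0.000138).

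S100a11, the partner of annexin A1, had 253, 217 and 223 reads in WT and 262, 317 and 339 in Piezo1cKO. Piezo1cKO replicate 1 was the lowest of its group and lay nearest to WT. The normalized reads were 226 ± 16.7 (SD, n = 3) against 309 ± 35.6 (SD, n = 3), a ratio of 1.37 and the highest of the family. The log2 fold change on the deposited scale was 0.22 (SE 0.04, limma adjusted p = 0.000306).

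S100a6, known as calcyclin and as a transcript of proliferating cells, had 232, 201 and 214 reads in WT and 230, 300 and 266 in Piezo1cKO. Before normalization Piezo1cKO replicate 1 fell inside the WT range, and after it the groups lay apart at 203 to 225 and 240.3 to 292 normalized reads. The ratio was 1.27, and the deposited log2 fold change was 0.16 (SE 0.04, limma adjusted p = 0.00246).

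S100a1 and S100a13, the head-to-head neighbours, had almost equal changes. S100a1 had 1228, 1189 and 1161 reads in WT and 1287, 1395 and 1384 in Piezo1cKO, and its normalized reads rose from 1169 ± 45.7 (SD, n = 3) to 1371 ± 33.3 (SD, n = 3). S100a13 had 681, 674 and 643 reads in WT and 696, 786 and 788 in Piezo1cKO, and its normalized reads rose from 653 ± 31.5 (SD, n = 3) to 765 ± 37.4 (SD, n = 3). The ratio was 1.17 for both. Their deposited log2 fold changes were 0.15 (SE 0.03, limma adjusted p = 0.000331) and 0.14 (SE 0.04, limma adjusted p = 0.00208).

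On the deposited scale these 5 changes were within the ordinary run of the table. A larger absolute log2 fold change was measured for 21.2% to 35.3% of all genes, and on the scale of reads for 49.3% to 68.9%. The 7 tested members had a median change of 0.15 (log2) on the deposited scale and 0.23 on the scale of reads, beside 0.00061 and -0.00026 over all genes.

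**Figure D3:**
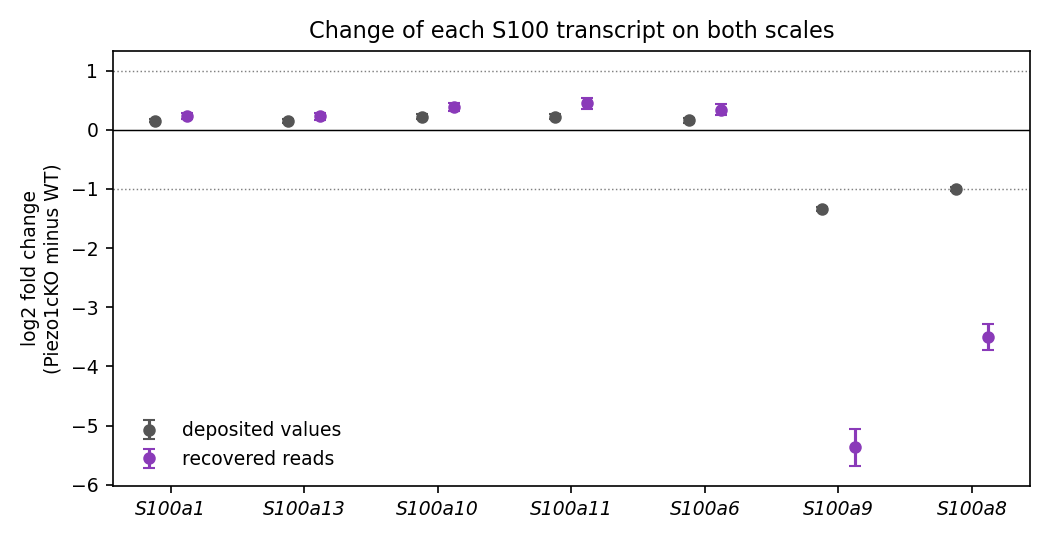
log2 fold change of Piezo1cKO over WT (vertical axis) of the 7 tested members, with the standard error as whiskers, from the deposited values (grey) and from the recovered reads (purple). Dotted lines mark a log2 fold change of 1 in either direction. S100a9 and S100a8 read -1.34 and -1.002 on the deposited scale and -5.37 and -3.50 on the scale of reads.

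S100a4, a marker of motile cells and fibroblasts, was near the limit of detection. It had 6, 1 and 0 reads in WT and 0, 1 and 0 in Piezo1cKO, 8 in all, so the groups overlapped. Its mean deposited value was below the filter and it was not tested. With no filter its deposited log2 fold change was -0.015 (SE 0.0099, limma adjusted p = 0.264), and no difference was detectable at this depth. Of the 584 exonic bases of S100a4, 302 are shared with the gene model Gm42674 on the same strand, which was listed at 0. How reads in that stretch were counted is not given in the sources used here, so the reads and RPKM of S100a4 may be undercounts.

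Levels between genes were compared per length, as RPKM, reads per kilobase of the principal transcript scaled to the reads on genes. In WT the order of levels was S100a1 at 116 ± 4.48, S100a13 at 61.3 ± 2.96, S100a10 at 39.7 ± 3.22, S100a9 at 33.8 ± 1.48, S100a8 at 29.7 ± 1.59, S100a11 at 29.7 ± 2.13, S100a6 at 19.4 ± 1.06 and S100a4 at 0.31 ± 0.42 RPKM (SD, n = 3). S100a8 and S100a11 could not be ordered, since their ranges overlapped, and no other neighbours in this order overlapped. In Piezo1cKO the order was S100a1 at 138 ± 3.47, S100a13 at 72.7 ± 3.63, S100a10 at 52.4 ± 3.61, S100a11 at 41.1 ± 4.78, S100a6 at 24.9 ± 2.46, S100a8 at 2.64 ± 0.67, S100a9 at 0.80 ± 0.28 and S100a4 at 0.044 ± 0.077 RPKM (SD, n = 3), with no overlap between neighbours. The order depended on the length used, and the principal transcript was chosen after both lengths were seen. With all annotated exons counted, the WT order after S100a1 and S100a13 was S100a9, S100a11, S100a10, S100a8 and S100a6, and S100a10 at 22.4 RPKM overlapped S100a8. In Piezo1cKO S100a11 at 41.1 RPKM then stood above S100a10 at 29.6 RPKM. S100a9 was below S100a8 and above S100a4 in Piezo1cKO with either length.

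Other genes with a pattern close to that of the calprotectin subunits were looked for over the 6 libraries, by the Euclidean distance between centred deposited values among the genes tested outside the family. Nearest to S100a8 were Cpox, an enzyme of heme synthesis, at a distance of 0.063, Ahnak, a giant scaffold protein, at 0.065, and Tlr4, the lipopolysaccharide receptor, at 0.080. Nearest to S100a9 were Ly6k at 0.048, Chil3, a chitinase-like protein of myeloid cells, at 0.059, and Cd300lf, a myeloid receptor, at 0.063. The likeness held on the deposited scale. In reads the falls were unequal, with a log2 fold change of -2.59 for Cpox, -1.80 for Ahnak and -2.63 for Tlr4 beside -3.50 for S100a8, and of -2.71 for Ly6k, -1.85 for Chil3 and -4.18 for Cd300lf beside -5.37 for S100a9.

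The interval of 3.05 Mb that holds the members contains 121 annotated genes, many of them genes of skin barrier formation. Of the 113 genes other than the members, 87 were listed at 0, 20 had values too low to test, 2 were not in the table and 4 were tested. Ivl, encoding the skin protein involucrin, and Gm4202, a processed pseudogene, were lower, by 0.12 and 0.11 on the deposited log2 scale (limma adjusted p = 8.70e-05 and 0.0136). They had 48 and 226 reads over all libraries, and on the scale of reads their log2 fold changes were -4.91 (SE 0.67) and -0.70 (SE 0.24) in limma-voom. Gm9774 and Tchh, encoding trichohyalin, read -0.050 and -0.0082 and did not pass. Between S100a6, at -56.1 kb from the start of S100a8, and S100a9, no gene other than S100a8 was tested. The direction thus turned between S100a6, which rose, and S100a8, which fell, and it turned again between S100a9 and S100a11, 2852 kb from S100a8.

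**Figure D4:**
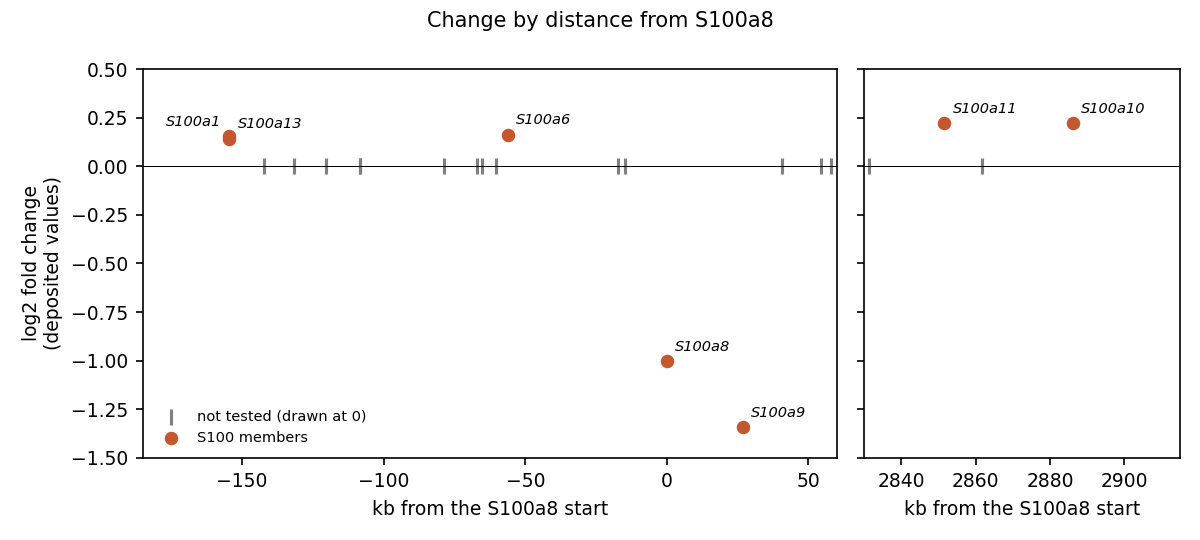
log2 fold change on the deposited scale (vertical axis) against the distance of each gene's start from that of S100a8 in kb (horizontal axis, in separate panels for either end of the interval). Orange points are the tested members and grey ticks at 0 are genes with no test, and the 4 other tested genes lie between the panels and are not drawn. Of the genes drawn with a value, S100a8 at 0 kb and S100a9 at 26.7 kb lie below 0 and the other 5 above.

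Of the 16 other S100 genes and fused S100 genes listed, 7 were listed at 0 and 2 were tested. S100b, a family member of glial cells, had 2, 1 and 1 reads in WT and 3, 4 and 4 in Piezo1cKO, a difference of 0.019 in deposited log2 values (limma adjusted p = 0.0753). S100a3, S100a5 and S100a14 had at most 5 reads in any library and none in Piezo1cKO. The 16 genes summed to 0.388 to 1.36 CPM (reads per 1000000 reads on genes) in WT and 0.596 to 0.779 in Piezo1cKO, beside 204 to 232 over all libraries for the 8 members.

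Of 14 tested receptors and adaptors through which secreted S100 proteins act, 5 were higher and 5 lower in Piezo1cKO, beside 31.6% and 31.4% of all genes, and the list median was 0.016 in deposited log2 values. Cd14, the co-receptor that hands ligands to TLR4, had 6118, 6083 and 6703 reads in WT and 405, 503 and 410 in Piezo1cKO. It fell by 2.65 on the deposited log2 scale (limma adjusted p = 3.66e-20), or 13.9-fold in normalized reads. Tlr4, the signalling receptor, had 305, 300 and 308 reads in WT and 45, 41 and 57 in Piezo1cKO, and fell by 1.01 on the deposited scale (limma adjusted p = 1.56e-13).

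Adaptors of this route changed in both directions. Ticam1, the adaptor TRIF, fell by 0.31, while Traf6 and Irak4, which carry the signal of TLR4 and MyD88 inward, rose by 0.20 and 0.30 on the deposited log2 scale. Myd88 at -0.021, Ly96 at 0.052 and Ager, which encodes RAGE, at 0.066 did not pass. Bsg and Nptn, encoding basigin and neuroplastin, receptors for S100A9 and S100A8, fell by 0.10 and 0.23. Cd36, a fatty acid transporter reported to bind calprotectin, rose from 0, 1 and 0 reads to 54, 71 and 52, a difference of 0.43 on the deposited log2 scale, which is compressed at so few reads. Cd33, a sialic acid lectin that binds S100A9, and Cd69 rose by 0.11 and 0.21.

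Of 24 intracellular partners tested, 9 were higher and 9 lower, beside 31.6% and 31.4% of all genes, and the list median was -0.028. For S100a10, which rose, Anxa2 fell by 0.34 and Ahnak, which binds the complex of both, fell by 1.01 (limma adjusted p = 3.11e-14). Ahnak had 730, 699 and 690 reads in WT and 183, 202 and 204 in Piezo1cKO, and the groups were far apart. Anxa2 had 4423, 4211 and 4422 reads in WT and 2957, 3305 and 2853 in Piezo1cKO, a fold of 0.72 in normalized reads (limma adjusted p = 5.36e-09), so S100a10 and its annexin went opposite ways. Plgrkt, a plasminogen receptor found with S100A10, rose by 0.29.

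For S100a11, Anxa1 rose by 0.47 (limma adjusted p = 2.17e-10), from 1483, 1374 and 1504 reads to 2189, 2223 and 2315, and Anxa6 rose by 0.23. Anxa1 and S100a11 went the same way. For S100a6, Sugt1, a co-chaperone, fell by 0.13, Anxa11 fell by 0.14, and Cacybp, the calcyclin-binding protein, read -0.041 and did not pass. For S100a4, Myh9, encoding non-muscle myosin heavy chain, rose by 0.34 and Ppfibp1, encoding liprin beta 1, fell by 0.59.

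For S100a1, Ryr1, a calcium release channel, rose by 0.21 and Atp2a2, the calcium pump SERCA2, read -0.048 and did not pass. For S100a13, the cargo genes Fgf1 and Il1a had at most 1 read in any library. For the calprotectin pair, which docks to the phagocyte NADPH oxidase, Cybb, the catalytic subunit, fell by 0.40 (limma adjusted p = 2.61e-09). The subunit genes Cyba and Ncf4 rose by 0.070 and 0.088, and Ncf1 at -0.067 and Rac2 at 0.0021 did not pass.

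Transcription factors named in general knowledge for S100a8 and S100a9 had 7 of 18 higher and 8 lower, beside 31.6% and 31.4% of all genes, and a list median of -0.071. Cebpb, encoding a factor of myeloid maturation, had 976, 932 and 999 reads in WT and 31, 36 and 35 in Piezo1cKO. It fell by 2.37 (limma adjusted p = 8.00e-20), and in normalized reads it was 27.6-fold lower. It was the only DEG of this list on the deposited scale.

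Among the other factors, Hif1a, the hypoxia factor, fell by 0.79 and Klf5, a zinc finger factor, by 0.53. Spi1, which encodes PU.1, fell by 0.26, Stat3 by 0.19, Gfi1 by 0.13 and Myb by 0.076. Atf3, a stress factor, had 26, 25 and 32 reads in WT and 0 in every Piezo1cKO library. Cebpa, the factor of early granulocyte fate, rose by 0.53 (limma adjusted p = 5.31e-10), from 121, 121 and 133 reads to 270, 287 and 279, opposite to Cebpb. Cebpe, Nfkb1, Jun, Fos, Irf8 and Runx1 rose by 0.097 to 0.27, and Cebpd, Rela and Junb, at -0.094 to -0.062, did not pass.

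**Figure D5:**
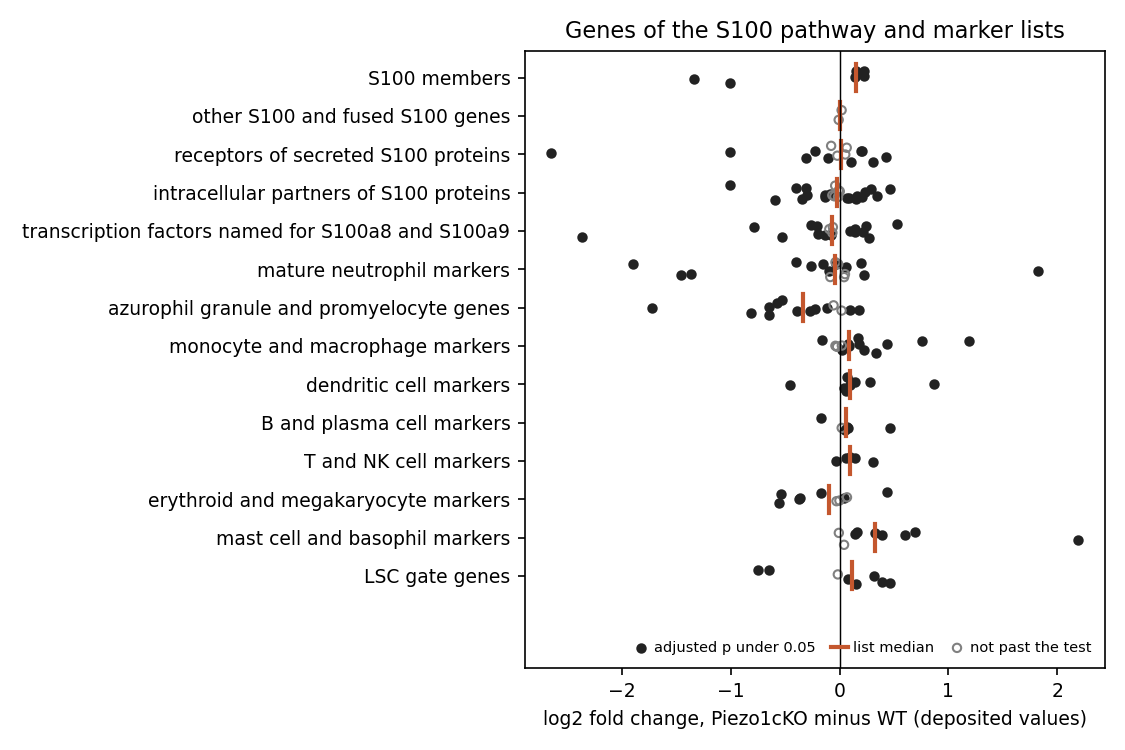
log2 fold change on the deposited scale (horizontal axis) of each tested gene, by gene list (vertical axis). Filled points passed an adjusted p under 0.05 (limma), open points did not, and orange bars are list medians. The lists of receptors, partners and transcription factors spread on both sides of 0, with medians of 0.016, -0.028 and -0.071.

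Markers of other cells moved with these results, and their part in the falls of S100a8 and S100a9 was not tested. Since S100a8 and S100a9 are abundant in maturing neutrophils and monocytes, the markers of those cells are given here. In bulk libraries, fewer cells of a type and less RNA per cell cannot be told apart. Mature neutrophil markers summed to 607 to 636 CPM in WT and 369 to 382 in Piezo1cKO, with 8 of 17 tested lower and 4 higher. The counts of this and the other marker lists stand beside 31.4% of all genes lower and 31.6% higher. Ngp and Camp, granule genes of maturing neutrophils, fell by 1.90 and 1.46 on the deposited log2 scale, and Mmp8, a granule collagenase, rose by 1.82. Within the list, Retnlg, Fpr1, Fpr2 and Il1b were listed at 0 and Ly6g had 1 read in all. Other markers were present in both groups, with 27 to 41 reads for Cxcr2 and 1336 to 1560 for Cd177, neither of which passed. Csf3r had 1846, 1776 and 1887 reads in WT and 1181, 1224 and 1164 in Piezo1cKO, and fell by 0.40. Padi4 had 2390, 2497 and 2614 reads in WT and 556, 657 and 581 in Piezo1cKO, and fell by 1.37. Cxcr2, Cd177, Csf3r and Padi4 were named after their values were seen.

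Azurophil granule and promyelocyte genes summed to 38857 to 41920 CPM in WT and 21551 to 23215 in Piezo1cKO, with 10 of 14 tested lower and 2 higher. Fcnb, Elane and Mpo fell by 1.72, 0.81 and 0.65. Monocyte and macrophage markers mostly went the other way, with 10 of 15 higher and 1 lower, at 1161 to 1202 against 1434 to 1457 CPM. C1qa and Vsig4 were listed at 0. C1qc had 0 reads in every WT library and 21, 29 and 15 in Piezo1cKO, and Mrc1 had 0 against 8, 7 and 17. C1qb had 0, 2 and 0 reads in WT and 6, 17 and 10 in Piezo1cKO. Fn1, Ccr2 and Ms4a6c rose by 1.19, 0.75 and 0.44. S100a8 and S100a9 therefore fell with most azurophil granule genes, while most of the listed monocyte and macrophage markers rose. The split was not complete. Of the monocyte and macrophage list Cx3cr1 fell, by 0.16, and Cd14, counted here with the receptors, fell by 2.65. Mmp8, a granule gene of the neutrophil list, rose by 1.82.

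Other lists held fewer reads. Mast cell and basophil markers summed to 282 to 297 CPM in WT and 830 to 836 in Piezo1cKO, with 7 of 9 higher and none lower, and Cpa3, a mast cell protease, rose by 2.19. Dendritic cell markers were at 57.1 to 60.6 against 125 to 127 CPM, with 8 of 9 higher and 1 lower, and Flt3 rose by 0.87. B and plasma cell markers were at 106 to 109 against 166 to 181, with 4 of 6 higher and 1 lower, and T and NK cell markers at 4.13 to 4.81 against 8.22 to 12.04, with 4 of 5 higher and 1 lower. Erythroid and megakaryocyte markers were at 35.3 to 42.6 against 25.8 to 28.8, with 2 of 10 higher and 5 lower. The list for the LSC sort had 5 of 8 higher and 2 lower, at 1208 to 1237 against 1296 to 1365 CPM. On the deposited log2 scale the largest change past the test was that of Fcgr2b, which encodes the CD32 part of the gate and fell by 0.75. Tfrc, the transferrin receptor, which the stated gate does not name, fell by 0.64, and Cd34 rose by 0.46. Itgam rose by 0.39, Kit by 0.31 and Ly6a by 0.081. In the limma-voom fit of the reads Ly6a had the largest change of the list, at 3.48 (SE 0.65), and Itgam was at 1.01.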

How the data were processed

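The authors made libraries after Smart-seq2 from poly(A) RNA of sorted LSCs, cut them with Tn5, which keeps no strand, and sequenced paired ends. For the authors' steps, the submitters' processing notes name fastp 0.20.1, HISAT2 2.2.1, featureCounts 2.0.1, DESeq2 1.28.1 and GRCm38. The deposited values were log2 values with the form of the regularized log, from -1.97 to 18.06, and 28965 of 55367 genes were listed at 0. The transformation is named in no source used here and was inferred from the values.

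The members and gene lists were chosen with earlier results of these data known. Genes with a mean deposited value of at least 1 (16746) were tested with limma 3.58.1 (R 4.3.3, linear model, empirical Bayes with a trend) and Benjamini-Hochberg adjustment across all genes. Recovered reads came from undoing the regularized log, with size factors, a dispersion trend and the strength of the pull fitted so that reads came out whole. With that strength 10% off, 23% of values were whole in place of 92.9%. Reads of genes with at least 10 in total (17352) were fitted with limma-voom. Antisense and overlapping genes cannot be told apart without strand. Gene models came from GENCODE M21, and promoters from RefSeq (GRCm38.p6). Named genes were all members, tested genes of the receptor, transcription factor and other S100 lists, partners of members, Piezo1 and neighbours. Also named were 3 genes with the largest change of each marker list and 3 nearest genes for S100a8 and S100a9. Genes of the sort named as a check, 4 further mature neutrophil markers, and C1qb, C1qc, Mrc1 and Cx3cr1 were added after their values were seen. Scripts were tested on simulated data. The simulation for the recovery of reads held no group difference, so falls as large as those of S100a8 and S100a9 were not tested in it. Alternatives covered filters, scaling, the variance model, the replicate block and each library left out.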

Additional observations from a re-analysis of the deposited data

How the results depend on the processing

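All 7 tested members kept their direction and an adjusted p under 0.05 (limma or limma-voom) under each alternative run, namely 2 other filters, another scaling, no trend, the replicate block, 6 fits without 1 library and 3 fits of recovered reads. S100a4 gave no test under most of them. The number of members that were DEGs went from 2 to 1 with each library shifted to the same median, where S100a8 read -0.98, and was 1 to 2 with 1 library left out, being 1 without WT replicate 1, Piezo1cKO replicate 1 or Piezo1cKO replicate 2. The S100a8 minus S100a9 difference was 1.94 on recovered reads beside 0.34 on deposited values, by construction of the latter, and 0.30 to 0.37 with 1 library left out. Over all genes, 137 DEGs on the deposited scale compare with 4322 on recovered reads and 908 with a mean of at least 50 reads. The shift to the same median turned 5298 higher and 5258 lower genes into 6450 and 4214.

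Same-numbered WT and Piezo1cKO libraries had correlations of 0.20, 0.16 and 0.070 in their deviations, not all over 0.1, so the numbers were taken as names, though each library correlated best with its own number. With the replicate block, 7 members were past the adjusted p and 2 were DEGs, S100a8 at -1.002. The difference of the calprotectin pair stayed at 0.34, with an exact permutation p of 0.25, the smallest that 3 pairs allow. Depth limits S100a4, S100a9 in Piezo1cKO and the pair's balance, each resting on under 30 reads a library. The exonic bases shared with Gm42674 limit S100a4 as well.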
